A study of Bos taurus with 2 samples.

Results

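The genes described here are 10 heat shock proteins and chaperones, chosen by name from the feature list, which holds 21867 genes. All 10 were found: the small heat shock proteins HSPB1 (ENSBTAG00000011969) and CRYAB (ENSBTAG00000000434), the cytosolic HSPA8 (ENSBTAG00000013162), DNAJB1 (ENSBTAG00000016874), HSP90AA1 (ENSBTAG00000006270) and HSP90AB1 (ENSBTAG00000000778), the endoplasmic reticulum proteins HSPA5 (ENSBTAG00000007662) and HSP90B1 (ENSBTAG00000003362), and the mitochondrial HSPD1 (ENSBTAG00000012586) and HSPE1 (ENSBTAG00000012589). They were measured in bovine satellite cells, the stem cells of skeletal muscle, from the longissimus muscle of 1 male Holstein calf aged 2 weeks. The cells were kept for 1 week in DMEM with 10% fetal bovine serum, a medium for growth, and 2 libraries, called libraries 1 and 2, were made from the same cells with the 10x Genomics 3′ kit, which counts captured RNA molecules by unique molecular identifiers (UMIs). No treatment was compared, so the groups are the 15 clusters of cells that the authors obtained with Cell Ranger. With 1 animal and 1 cell suspension, the spread between the libraries is that of library preparation, and animals were not compared.

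Chaperones bind unfolded proteins and help them to fold. HSP70 proteins such as HSPA8 and HSPA5 bind short exposed stretches of a protein. They are driven by J-domain partners, of which DNAJB1 works in the cytosol. HSP90 proteins act on nearly folded clients. The HSPD1 and HSPE1 chaperonin encloses proteins in the mitochondrial matrix, and small heat shock proteins hold unfolding proteins without using ATP. In muscle, CRYAB and HSPB1 are known for binding desmin and other parts of the cytoskeleton, and HSP90 is known for its part in the folding of myosin.

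The counts covered 9939 cells and 145631299 UMIs in library 1 and 9157 cells and 137818568 UMIs in library 2, and 27 cell barcodes occurred in both. The median was 14626 UMIs per cell in library 1 and 15206 in library 2. Clusters differed in depth, with medians of 647 UMIs per cell in cluster 15, 1389 in cluster 7, 1631 in cluster 13, 2513.5 in cluster 14, 5398.5 in cluster 10 and 12929 to 23011 in the remaining 10 clusters. Among markers of the cells named on the label, PAX7 had 176 UMIs and PAX3 had 316 in all cells, while the myoblast gene MYOD1 had 114882. MYOG, which drives differentiation into muscle cells, had its highest levels in cluster 12 (18.6 UMIs per 10000) and cluster 3 (6.68). PDGFRA, a marker of fibro-adipogenic progenitors, was highest in cluster 9 (1.58) and cluster 7 (1.52). PPARG and ZNF423, also such markers, were at 0.288 and 0.124 in cluster 9 and at 0.0898 and 0.0993 in cluster 7. Of these 3 markers, 3 were higher in cluster 9 and 1 in cluster 7, against 25.3% and 18.3% of all genes. The muscle genes MYH3 and MYMK were highest in cluster 12 (15.5 and 3.16), followed by cluster 7 (4.69 and 0.6). Of 8 myogenic markers, 2 were higher and 4 lower in cluster 7, against 18.3% and 26.4%. Of 4 immune markers, PTPRC had 1 UMI, CSF1R 14, CD3E 52 and CD68 580, and CD68 was higher in cluster 7 by 2.23 on the log2 scale. Of 4 endothelial markers, TIE1 had 0, KDR 25, CDH5 28 and PECAM1 45, and PECAM1 was higher in cluster 9 by 4.50 on that scale. The glial FOXD3 and SOX10 had 0. Of the markers of pericytes and smooth muscle, ACTA2 had 190636 UMIs, with 3.21 to 9.12 per 10000 over the clusters, and NOTCH3 had 10356, with its highest level (1.68) in cluster 7, while RGS5, MCAM and MYH11 had 8 to 192. The part of these markers in the results was not tested. The UMIs of 89 ribosomal protein genes summed to 906 and 898 per 10000 in cluster 7 (libraries 1 and 2), against 2190 to 3100 in the other clusters.

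Levels are UMIs of a gene per 10000 UMIs of the cells of a cluster in 1 library. In each comparison the UMI sums of a cluster in both libraries were set against those of all other cells, or of a second cluster, and genes with a p under 0.05 in the quasi-likelihood test of edgeR, after Benjamini-Hochberg adjustment over all genes, were called higher or lower. Log2 fold changes come from this fit after TMM normalization, so they can differ from the ratio of the levels. The clusters were made from the same counts, so a small p is not independent evidence that the clusters differ. Over the 15 comparisons of a cluster with all other cells, the 10 genes were called higher 41 times and lower 63 times out of 150, against 14.9% higher and 17.1% lower over all genes tested. The members are well counted, and whether genes of like abundance are called as often was not tested.

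**Figure D1:**
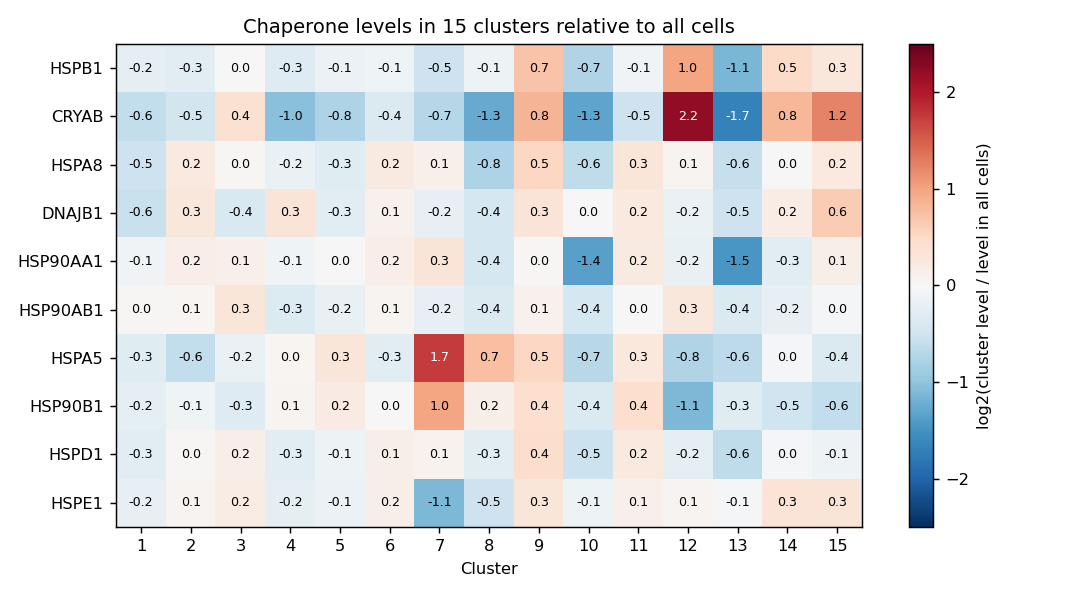
Heatmap of the 10 genes (rows) in the 15 clusters (columns). Each cell gives the log2 ratio of the level in the cluster, both libraries together, to the level in all cells, without TMM normalization. CRYAB in cluster 12, HSPA5 in cluster 7 and the low HSP90AA1 of clusters 10 and 13 stand out.

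CRYAB, also known as alpha-B crystallin, varied more between clusters than the other 9 genes, with a 15-fold range of mean levels, against 1.68-fold for HSP90AB1 to 5.65-fold for HSPA5. In cluster 12 its level was 16.3 in library 1 and 15.1 in library 2. The next levels were 7.45 and 8.55 in cluster 15, 6.19 and 5.90 in cluster 9 and 6.10 and 5.93 in cluster 14, followed by cluster 3 with 4.44 and 4.27. Those of cluster 15 rest on 71 and 106 UMIs, and 67.5% of its cells were without a CRYAB UMI. The other 10 clusters lay between 0.942, in cluster 13, and 2.63, in cluster 6. Cluster 12 therefore did not overlap with any other cluster, while clusters 9 and 14 overlapped with each other.

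Against all other cells, CRYAB was higher in cluster 12 by 2.67 on the log2 scale (standard error 0.067, Benjamini-Hochberg adjusted p = 1.39e-06 by edgeR). It was also called higher in clusters 15, 14, 9 and 3, by 1.04, 0.94, 0.93 and 0.57, and lower in the other 10. Clusters 13, 10, 7, 8 and 4 had −1.81, −1.46, −1.37, −1.26 and −1.14, and clusters 5, 1, 11 and 2 had −0.78, −0.60, −0.59 and −0.54. CRYAB was thus called in 15 of 15 clusters, more often than any other of the 10 genes. The cells outside each other cluster include those of cluster 12, and the part of cluster 12 in these calls was not tested. Clusters 2 and 6 were called lower at mean levels of 2.44 and 2.62, above the median of 2.36 over the clusters. The call in cluster 15, whose cells were the shallowest, had a Benjamini-Hochberg adjusted p of 0.0478 by edgeR and was lost without doublets (log2 fold change 1.05), without TMM (1.26) and when cells were reassigned to the cluster whose profile over all genes except chaperones fitted them best (0.52). In each of these settings 0 of all genes were called higher in cluster 15, so the loss of the call is not particular to CRYAB. In cluster 14 the value was 0.54 after the same reassignment, and was still called. The 23 cells of cluster 14 with the most CRYAB had a level of 45.1, and the other 423 of 3.95. The level of 3.35 in all cells outside the cluster kept the top cells there, so it is not a like comparison. The part of the 23 cells in the call was not tested.

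HSPB1, which encodes the small heat shock protein HSP27, had its highest level in cluster 12 as well, at 9.05 and 8.87 UMIs per 10000. Cluster 9 followed at 7.14 and 7.62, cluster 14 at 6.21 and 6.37 and cluster 15 at 5.88 and 5.08, and the lowest level was in cluster 13 at 2.22 and 1.87. These 4 highest clusters did not overlap with each other or with the rest, where the levels ran up to 4.63. The log2 fold change against all other cells was 1.24 in cluster 12 (standard error 0.047, Benjamini-Hochberg adjusted p = 6.03e-06 by edgeR), 0.78 in cluster 9 and 0.58 in cluster 14. It was called lower in 7 clusters, with the largest changes in clusters 13, 7 and 10, at −1.24, −1.17 and −0.87. Across the 15 clusters the log2 levels of HSPB1 and CRYAB had a Pearson r of 0.909, and over the 10 deeper clusters of 0.926, as a description of points that come from the same 2 libraries.

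**Figure D2:**
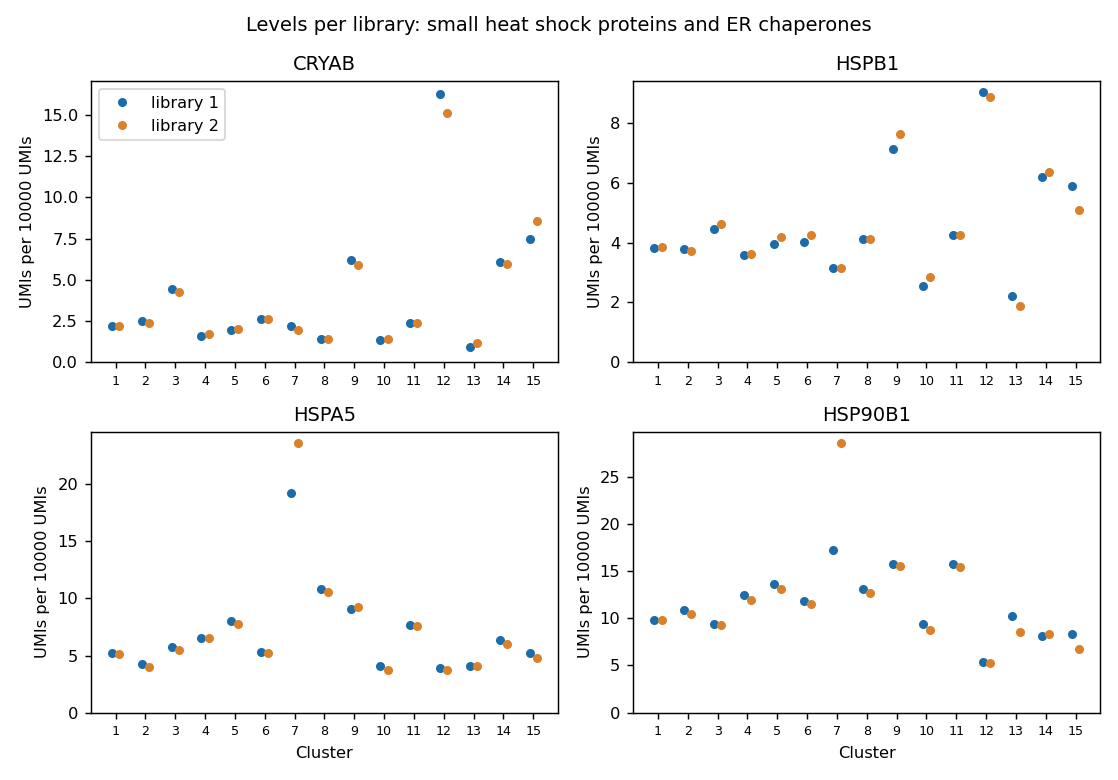
Levels of CRYAB, HSPB1, HSPA5 and HSP90B1 in UMIs per 10000 UMIs (vertical axis) in the 15 clusters (horizontal axis), with 1 point per library. Cluster 12 holds the highest CRYAB and HSPB1, and in cluster 7 the HSP90B1 points lie at 17.2 and 28.6.

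The clusters with the most MYOG were compared directly. From cluster 1, which had MYOG at 0.876 UMIs per 10000, to cluster 3, 9 of the 10 genes were higher, against 21.1% of all genes, and 0 were lower by edgeR at the adjusted or the unadjusted threshold or by DESeq2, against 19.1%. CRYAB went from 2.21 and 2.20 to 4.44 and 4.27, which is 1.02 on the log2 scale (standard error 0.047, Benjamini-Hochberg adjusted p = 1.67e-05 by edgeR), and HSPA8 from 13 and 12.9 to 19.1 and 18.9, a log2 fold change of 0.59. The libraries of both clusters did not overlap for either gene. HSP90B1 was the 1 gene not called.

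From cluster 3 to cluster 12, 3 of the 10 genes were higher and 4 lower, against 18.2% and 15.6% of all genes. CRYAB was higher by 1.95 on the log2 scale (standard error 0.063, Benjamini-Hochberg adjusted p = 6.81e-07 by edgeR), HSPB1 by 1.08, and DNAJB1 was the third gene called higher. HSP90B1 was called lower, with a log2 fold change of −0.71, and HSPA5, HSPD1 and HSP90AA1 were also called lower. With the library as a replicate block, which pairs the sums, 5 genes were higher and 4 lower, against 23.7% and 22.3% of all genes. Small heat shock proteins and chaperones of the endoplasmic reticulum thus went in opposite directions between the same clusters.

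**Figure D3:**
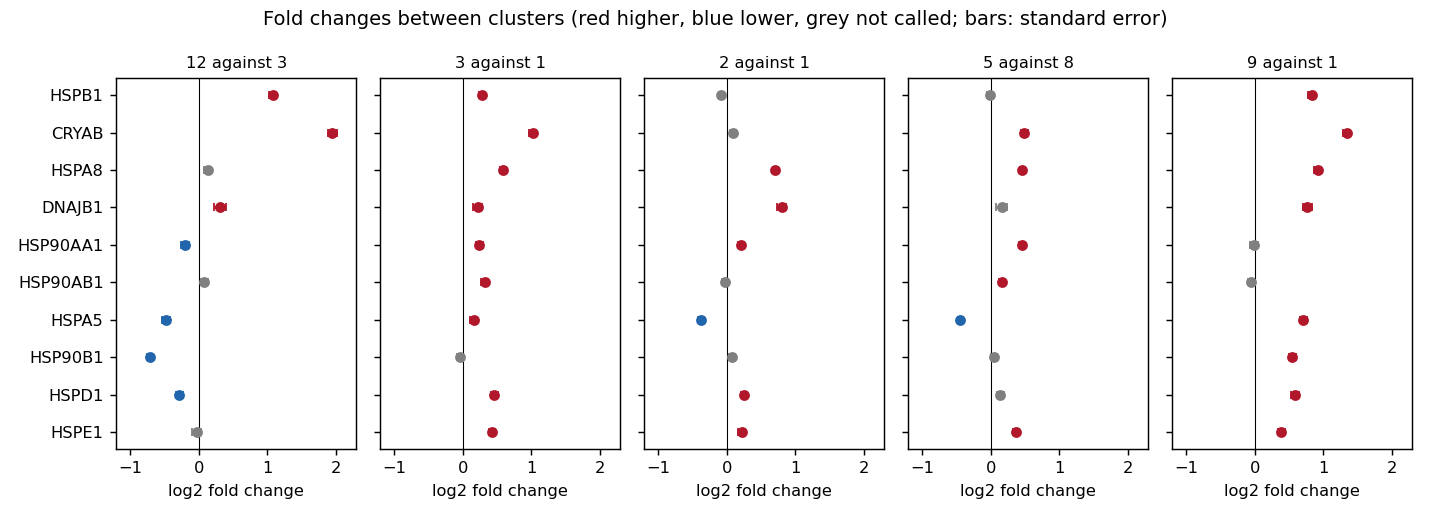
Log2 fold changes of the 10 genes between pairs of clusters (horizontal axis, bars give the standard error), with red for called higher, blue for called lower and grey for not called. CRYAB stands at 1.95 between clusters 12 and 3, where HSP90B1 stands at −0.71.

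Of 6 other small heat shock proteins, 3 were higher and 1 lower in cluster 12 than outside it, with a median log2 fold change of 1.70, against −0.09 over all genes. Of all genes, 24.8% were higher and 29.5% lower there. HSPB3 was higher by 4.87 and HSPB2 by 3.84, both known from skeletal and heart muscle. HSPB8 was higher by 3.00 and HSPB7 was lower with −2.31, and these last values were picked after they had been seen. In the RefSeq annotation of the ARS-UCD2.0 assembly, HSPB2 is the gene next to CRYAB. Their directions did not match in every cluster, since HSPB2 was lower in cluster 9 with −1.77, where CRYAB was higher with 0.93. The cells outside cluster 9 include those of cluster 12, where both genes were higher, and their part was not tested. In cluster 3, 2 of the 6 were higher and 2 lower, against 24.5% and 25.4% of all genes. HSPB7 was at −2.70 and HSPB8 at 1.39, and HSPB2 was the other one called higher, at 1.12. Cluster 9 is among the cells outside cluster 3 as well, and its part in the HSPB7 value was not tested. A list of 31 cytosolic partners of HSP70 and HSP90 also holds HSP70 genes, such as HSPA2 and HSPA1A. Of its genes 19 were higher and 6 lower in cluster 12, with a median of 0.31. UNC45B, a myosin chaperone, was higher by 5.22, followed by DNAJB5 with 2.15.

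Within cluster 12 the level of CRYAB in single cells had a median of 12.6 UMIs per 10000, with 2.85 at the 5th percentile and 39.0 at the 95th. In cluster 9 the median was 3.53 and the 95th percentile 21.1. Cells were thinned to 1000 UMIs to compare shares, which left 18420 cells and dropped 676. A CRYAB UMI was then found in 69.5% of the cells of cluster 12 (95% exact binomial interval 65.8 to 73.1%), in 37.8% of those of cluster 9 (34.9 to 40.7%) and in 10.8% of those of cluster 13 (8.23 to 13.8%), while the unthinned shares were 99.0%, 92.6% and 14.8%. No cluster is known to lack CRYAB, so the background that free RNA gives was not measured, and the lowest share was the 10.8% of cluster 13. The intervals cover counting error only. The variance of the thinned counts was 1.84 times the mean in cluster 12 and 2.05 times in cluster 9, against 1.01 to 1.39 times in the other 8 deeper clusters.

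**Figure D4:**
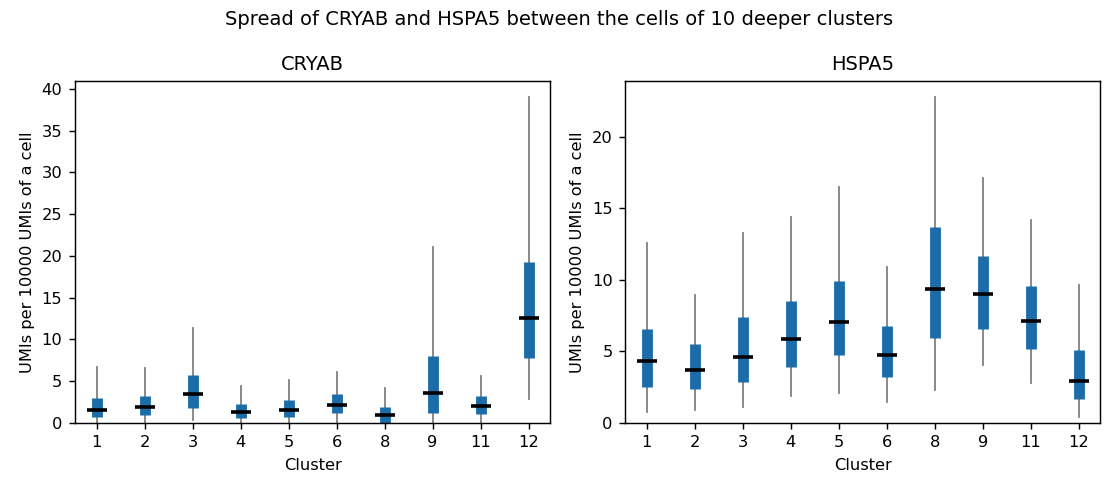
Level of CRYAB (left) and HSPA5 (right) in single cells of the 10 deeper clusters, in UMIs per 10000 UMIs of a cell. The black line is the median, the box runs from the 25th to the 75th percentile and the thin line from the 5th to the 95th. CRYAB has a median of 12.6 in cluster 12 and a long upper range in cluster 9.

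HSPA5, also called BiP, is the HSP70 of the endoplasmic reticulum. Its level was 19.2 and 23.6 UMIs per 10000 in cluster 7, 10.8 and 10.6 in cluster 8 and 9.08 and 9.29 in cluster 9. The lowest was 3.88 and 3.70 in cluster 12, which overlapped with cluster 10 at 4.13 and 3.71. Clusters 7, 8 and 9 did not overlap with each other or with the rest, where the highest level was 8.04. Set against all other cells, the fold change on the log2 scale was 1.13 in cluster 7 (standard error 0.13, Benjamini-Hochberg adjusted p = 0.000866 by edgeR), 0.86 in cluster 8 (standard error 0.037) and 0.56 in cluster 9 (standard error 0.046). It was 1.78 in cluster 7 without TMM normalization and 1.36 without cells under 2000 UMIs. HSPA5 was called lower in 6 clusters, with the largest changes in clusters 10, 13, 2 and 12, at −0.83, −0.76, −0.72 and −0.60.

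HSP90B1, the HSP90 of the endoplasmic reticulum, also called GRP94, had its lowest level in cluster 12, at 5.39 and 5.30 UMIs per 10000. The levels in cluster 9 were 15.7 and 15.5 and in cluster 11 were 15.7 and 15.4. In cluster 7 the libraries lay far apart, at 17.2 and 28.6. The log2 fold change in cluster 7 was 0.35 and was not called (Benjamini-Hochberg adjusted p = 0.281 by edgeR), and it was −0.08 in library 1 alone and 0.70 in library 2 alone. In cluster 12 it was −0.97 (standard error 0.050, Benjamini-Hochberg adjusted p = 1.80e-05 by edgeR). A value of −0.86 in cluster 15 had a Benjamini-Hochberg adjusted p of 0.0478 by edgeR. It was no longer called without doublets (−0.90) or without TMM (−0.64), where 0 of all genes were called in cluster 15.

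Other genes for folding in the endoplasmic reticulum were counted over a list of 20. In cluster 12, 3 were higher and 14 lower, with CRELD2 at −1.06 and HYOU1 at −1.0. In cluster 8, 13 were higher and 4 lower, with HERPUD1 at 1.11 and ERO1A at 0.86. In cluster 9, 11 were higher and 5 lower, with MANF, a secreted factor of this compartment, at 1.61 and CRELD2 at 1.34. In cluster 7, 8 were higher and the other 12 not called, with HYOU1 at 1.82 and PDIA4 at 1.10. Of all genes, 24.8% were higher and 29.5% lower in cluster 12, and 22.5% and 23.5% in cluster 8. The shares were 25.3% and 27.7% in cluster 9 and 18.3% and 26.4% in cluster 7. The medians of the list were −0.51, 0.28, 0.38 and 0.45 in clusters 12, 8, 9 and 7, against −0.09, 0.01, −0.04 and −0.12 over all genes. The summed level of the list in cluster 7 was 119 in library 1 and 171 in library 2, so the libraries differed there as they did for HSP90B1.

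In cluster 7, HSPA5 was the 1 gene called higher, against 18.3% of all genes, and 8 were called lower, against 26.4%, of which 3 turned positive without TMM normalization. HSPE1 had −1.78, CRYAB −1.37, HSPB1 −1.17, DNAJB1 −0.87 and HSP90AB1 −0.86. Scaling moved these values by more than in any other cluster, since the median of all genes was −0.12 with TMM and 0.52 without it. HSPA8 (−0.51), HSPD1 (−0.55) and HSP90AA1 (−0.33) were called lower with TMM, and without it they were 0.14, 0.10 and 0.32. The mean levels inside and outside the cluster were 9.25 and 8.64 for HSPD1 and 45.2 and 36.2 for HSP90AA1. DNAJB1 stayed negative without TMM, at −0.23, and was not called. Without cells under 2000 UMIs, HSPA8 was −0.26 and HSPD1 −0.40, and neither was called. The low depth and the low ribosomal protein share of cluster 7 moved with these results, and their part in them was not tested.

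HSPE1, the co-chaperonin of HSPD1, had its lowest level in cluster 7 at 2.63 and 2.48 UMIs per 10000, and the next lowest was cluster 8 at 3.85 and 3.94. Its log2 fold change in cluster 7 (−1.78) had a standard error of 0.087 and a Benjamini-Hochberg adjusted p of 7.92e-05 by edgeR, and was −1.96 without cells under 2000 UMIs. In cluster 8 it was −0.50. The highest HSPE1 levels were 6.78 and 7.37 in cluster 14, 6.92 and 7.01 in cluster 15 and 6.75 and 7.03 in cluster 9, which overlapped. HSPD1, the chaperonin HSP60, was highest in cluster 9 at 12.1 and 11.5. HSPD1 was lowest in cluster 13 at 5.74 and 5.41, which overlapped with cluster 10 at 6.16 and 5.72. It was called lower in 6 clusters, with the largest changes in clusters 10 and 13, at −0.67 and −0.74.

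HSPD1 and HSPE1 are neighbours in the RefSeq annotation of ARS-UCD2.0, and their products work as a pair. The ratio of HSPE1 to HSPD1 UMIs was 0.293 and 0.261 in cluster 7. In the other clusters it ran from 0.517, in library 1 of cluster 8, to 1.07, in library 2 of cluster 13. These ratios compare clusters and do not give the relative amount of both RNAs, since capture differs between genes. The libraries also differed in one direction, with HSPE1 higher in library 2 in 14 of 15 clusters and HSPD1 in 1 of 15. Cluster 7 was the exception for both genes, with HSPE1 at 2.63 and 2.48 and HSPD1 at 8.99 and 9.51. A second row of the feature list (ENSBTAG00000047441) also carries the name HSPD1. Its level over all cells was 0.417, against 8.65 for the row used here. The sequences of both rows were not compared, and how reads were shared between them is uncertain. Of 8 other mitochondrial folding genes, 2 were higher and 6 lower in cluster 7 with TMM, against 18.3% and 26.4% of all genes, with HSCB at −1.46 and CLPP at −1.09. The summed level of these 8 genes in cluster 7 was nevertheless 6.40 and 6.09 UMIs per 10000, a mean of 6.25 that was above those of the other 14 clusters (4.25 to 5.95).

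**Figure D5:**
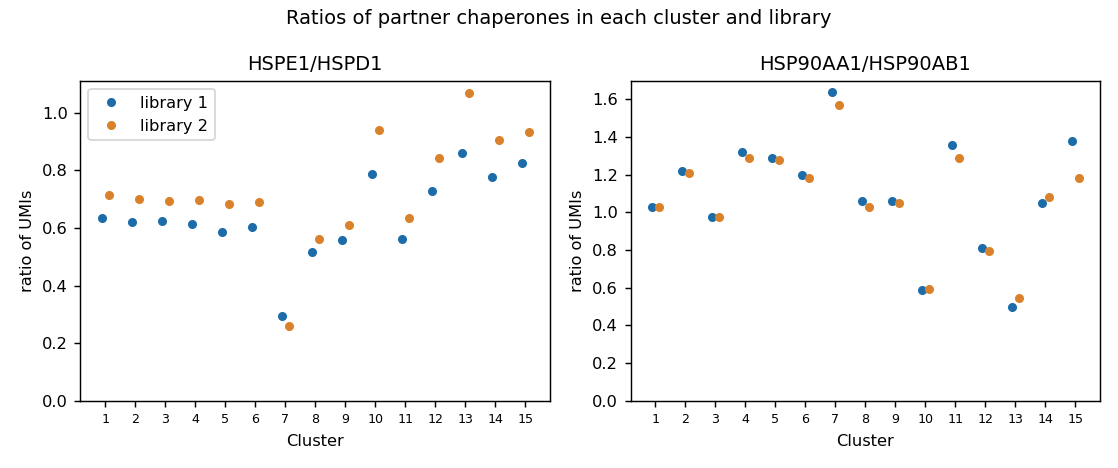
Ratio of UMIs of HSPE1 to HSPD1 (left) and of HSP90AA1 to HSP90AB1 (right) in the 15 clusters, with 1 point per library. Cluster 7 is lowest in the first ratio and highest in the second, and clusters 10 and 13 are lowest in the second.

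HSP90AA1 and HSP90AB1 encode the cytosolic HSP90 proteins, of which the first is known to be induced by stress and the second to be made at a steadier rate. HSP90AA1 was low in cluster 10, at 14.5 and 13.9 UMIs per 10000, and in cluster 13, at 13.1 and 13.2, while the other clusters ran from 25.9 to 45.3. HSP90AB1 was 24.7 and 23.5 in cluster 10 and 26.6 and 24.2 in cluster 13, which overlapped, and up to 41.3 in cluster 3. The HSP90AA1 log2 fold change was −1.49 in cluster 10 (standard error 0.058, Benjamini-Hochberg adjusted p = 2.10e-05 by edgeR) and −1.57 in cluster 13. HSP90AB1 had −0.56 in cluster 10. The ratio of HSP90AA1 to HSP90AB1 UMIs was 0.586 and 0.592 in cluster 10, 0.495 and 0.547 in cluster 13 and 0.813 and 0.793 in cluster 12. Cluster 7 had 1.64 and 1.57, above all others.

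Clusters 10 and 13 were low in most of the 10 genes. In cluster 10, 9 genes were lower, against 21.9% of all genes, and in cluster 13, 8 were lower, against 11.3%. In both clusters 0 were higher by edgeR at the adjusted or the unadjusted threshold and 0 by DESeq2, against 16.7% and 5.98% of all genes called higher by edgeR. DNAJB1 was called in neither, and HSPE1 was not called in cluster 13. The median log2 fold change of the 10 genes was −0.72 in both clusters, against −0.03 and −0.14 over all genes. HSPA8 had −0.77 in cluster 10 and −0.70 in cluster 13. All 8 genes of TRiC, the chaperonin of the cytosol that folds actin and tubulin, were lower in both clusters, with medians of −1.04 and −1.18. Cells of cluster 13 had a median of 1631 UMIs and those of cluster 10 of 5398.5. Without cells under 2000 UMIs, HSP90AA1 was −1.50 in cluster 10 and −1.68 in cluster 13. That filter took 425 cells from cluster 13 and 0 from cluster 10, so it cannot show the part of depth in cluster 10.

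In cluster 3, HSP90AB1 was higher by 0.50 (standard error 0.059, Benjamini-Hochberg adjusted p = 0.00106 by edgeR), with 41.3 and 39.6 UMIs per 10000. Cluster 12 overlapped with it at 40.5 and 39.3. Cluster 3 had 7 of the 10 genes higher and 2 lower, against 24.5% and 25.4% of all genes, and cluster 12 had 5 higher and 2 lower, against 24.8% and 29.5%. All 8 TRiC genes were higher in cluster 3. In cluster 12, 3 were higher and the other 5 not called.

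HSPA8, the constitutive HSP70 of the cytosol, was highest in cluster 9 at 26.8 and 26.1 UMIs per 10000 and lowest in cluster 8 at 10.8 and 10.9. These clusters did not overlap with any other. The log2 fold change was 0.54 in cluster 9 and −0.76 in cluster 8 (standard error 0.033, Benjamini-Hochberg adjusted p = 5.48e-05 by edgeR). Cluster 1 had 13 and 12.9 and a log2 fold change of −0.50. In cluster 8, 2 of the 10 genes were higher, both of the endoplasmic reticulum, and 7 were lower, against 22.5% and 23.5% of all genes. Between clusters 5 and 8, which held the highest PAX3 levels at 0.0213 and 0.0277, 5 genes were higher in cluster 5 and HSPA5 was lower, against 16.3% and 12.2% of all genes.

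DNAJB1, a J-domain partner of HSP70 that is known as a target of the heat shock response, was sparse, with 10662 UMIs and a UMI in 38.0% of all cells. Its level ran from 0.249 and 0.259 in cluster 1 to 0.525 and 0.645 in cluster 15, and 10 of the 14 pairs of neighbours in the order of clusters overlapped. The levels in cluster 15 rest on 5 and 8 UMIs, and DNAJB1 was not called there. It was called higher in 3 clusters and lower in 5, among them cluster 1 with −0.55 (standard error 0.057, Benjamini-Hochberg adjusted p = 0.0015 by edgeR). In cells thinned to 1000 UMIs, 1.57% (cluster 13) to 8.70% (cluster 15, 23 cells) had a DNAJB1 UMI.

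Clusters 2 and 9 were each compared with cluster 1. Between clusters 2 and 1, 5 genes were higher in cluster 2 and 1 lower, against 22.7% and 19.3% of all genes, and with the library as a replicate block 3 were lower, against 26.7% of all genes. DNAJB1 was higher by 0.80 and HSPA8 by 0.71, while HSPA5 was the gene called lower. On the list of cytosolic partners, 19 of 31 genes were higher and the other 12 not called. The largest changes were 1.59 for HSPA2, itself an HSP70, and 1.01 for HSPH1.

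Between clusters 9 and 1, 8 of the 10 genes were higher in cluster 9, against 31.3% of all genes, and 0 were lower by edgeR at the adjusted or the unadjusted threshold or by DESeq2, against 31.9%. CRYAB was higher by 1.34, HSPA8 by 0.92, HSPB1 by 0.83, DNAJB1 by 0.77, HSPA5 by 0.71, HSPD1 by 0.59 and HSP90B1 by 0.55. HSP90AA1 and HSP90AB1 had −0.01 and −0.05 and were not called. Against all other cells 8 genes were also higher in cluster 9, against 25.3% of all genes, and 0 were lower by edgeR at either threshold or by DESeq2, against 27.7%. Of the 31 genes on the list of cytosolic partners, 18 were higher in cluster 9 than in cluster 1, 6 lower and 7 not called. HSPA1A, the heat-inducible HSP70, was higher by 1.84. Of the 6 other small heat shock proteins, 2 were higher and 3 lower in cluster 9 than outside it, and HSPB7 was higher by 4.16 while HSPB8 had −2.92.

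Set against all other cells, cluster 1 had 7 genes lower, against 18.8% of all genes, and 0 were higher by edgeR (1 at an unadjusted p under 0.05, 0 by DESeq2), against 14.6%. Cluster 2 had 3 higher and 4 lower, against 15% and 16.8%, cluster 4 had 1 higher and 6 lower, against 16.3% and 15.3%, and cluster 5 had 2 higher and 4 lower, against 12% in each direction. In cluster 5 both higher genes, HSPA5 and HSP90B1, belong to the endoplasmic reticulum. Cluster 6 had 3 higher and 2 lower, against 10.6% and 9.48%, and cluster 11 had 5 higher and 2 lower, against 12.8% and 13.7%, where the lower ones were CRYAB and HSPB1. In cluster 14, 3 were higher, namely CRYAB, HSPB1 and HSPE1, and HSP90B1 was lower, against 3.73% and 4.07%. In cluster 15, which had 317 cells, CRYAB was higher and HSP90B1 lower, against 0.039% and 0.234%.

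Across single cells, the genes were compared within each of the 10 deeper clusters and each library, which gives 20 sets of cells. The 45 pairs of genes had median Pearson correlations with a median of 0.061, and 35 of them were above 0. The highest medians were 0.324 for HSP90AA1 with HSP90AB1 (0.128 to 0.542 over the 20 sets), 0.318 for HSP90AB1 with HSPD1, 0.267 for HSPA5 with HSP90B1 (0.083 to 0.485) and 0.242 for HSP90AA1 with HSPD1. For HSPD1 with HSPE1 it was 0.220. HSPB1 with CRYAB had a median of 0.137 but a mean of 0.460 over both libraries of cluster 12. Other pairs were higher there as well, with 0.485 for HSP90AA1 with HSP90AB1 and 0.427 for HSPA5 with HSP90B1. Some were lower, such as HSP90AA1 with CRYAB at −0.146 against a median of 0.0847. With DNAJB1, no gene had a median above 0.0698. These values are descriptions, since cells of a set share their library and differ in depth, and sparse counts lower a correlation.

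Genes with the most similar levels over the 15 clusters were named by Pearson r of log2(level + 0.1) among 2717 genes. For CRYAB they were UQCRB (0.906) and SDHC (0.883), subunits of the respiratory chain, and for HSPE1 MRPL40 (0.978) and POLR2L (0.968). HSPA8 was closest to the TRiC subunit CCT6A (0.941) and to TIMM23 (0.914), and HSPA5 to TMED9 (0.932) and COL6A1 (0.929). For HSP90B1 they were IPO5 (0.944) and CKAP4 (0.940), for HSP90AA1 CDC5L and PSMD2 (both 0.959) and for HSP90AB1 RBM4 (0.907) and BZW2 (0.886). HSPB1 was closest to VDAC2 and TMEM11 (both 0.887), HSPD1 to LRRC59 (0.892), and DNAJB1 to MZT1 (0.887) and YWHAH (0.876). Of the 20 genes that the rule gave, 0 were named again over the 10 deeper clusters, so the names depend on which clusters are included. Whether leaving out deeper clusters changes the names as much was not tested.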

How the data were processed

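The 2 libraries of cultured satellite cells were analysed together. The authors aligned reads to ARS-UCD1.2, counted UMIs and clustered cells with Cell Ranger 3.0.2, and the deposited values are whole UMI counts per gene and cell. The authors' commands combined both libraries with the aggregation step of Cell Ranger, set to normalize by mapped reads. The depths and library differences given here are thus those after that step. The cluster table that the authors deposited holds an average per gene and cluster, used here, and fold changes and p-values, which were not used. The deposited averages, scaled by the UMIs of a cluster, gave whole UMI sums from which the cluster of each of the 19096 cells was deduced, and 0 of 252240 pairs of gene and cluster differed from these sums. The suffix of each barcode gave its library.

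UMIs were summed per cluster and library. Genes passing filterByExpr were tested with edgeR 4.0.16 in R 4.3.3 (TMM, quasi-likelihood test, Benjamini-Hochberg adjustment over all genes, threshold 0.05), as 2 sums against 2 without a block, and the script was tested on simulated data. Sums of the same number come from the same library, which pairs them: across genes, log2 library ratios of a cluster correlated with those of its comparison cells by 0.167 to 0.669 over the 15 clusters. Cells were thinned with numpy 2.4.6. Scrublet, in scanpy 1.11.5, gave 1397 cells (7.32%) a score above 0.25, and these were kept. Alternatives were DESeq2 1.42.0, no TMM, no filter on low counts, a replicate block, 1 fit over all clusters with equal weights, no cells under 2000 UMIs, no doublets, cells assigned by profile without the chaperones, and each library left out.

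Fold changes are printed for pairs of gene and comparison that were called and differ by at least 0.5 on the log2 scale, with the others counted. HSP90B1 and HSP90AA1 in cluster 7 and HSP90AA1 and HSP90AB1 between clusters 9 and 1 were added after their values were seen. The 2 most similar genes of each member are named and, for some lists and comparisons only, the 2 called genes with the largest change. TRiC genes were not named with a fold change. Between clusters 9 and 1, HSPA1A was the only gene so named from the list of cytosolic partners. A marker gene and 1 of the similar genes are not reported here. The members and lists were chosen with earlier results of these data known. Gene names are those of the feature list, and all 10 members matched RefSeq (ARS-UCD2.0), which was used for neighbouring genes only.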

Additional observations from a re-analysis of the deposited data

How the results depend on the processing

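Of 59 printed fold changes, 54 kept their direction and their call in all tested settings. Without TMM, HSPD1 and HSPA8 in cluster 7 turned to 0.10 and 0.14. In that setting DNAJB1 in cluster 7 (−0.23), HSP90B1 in cluster 15 (−0.64) and CRYAB in cluster 15 (1.26) were no longer called. It called 0 of all genes in cluster 15, so the loss there is not particular to these genes. Without cells under 2000 UMIs, HSPD1 (−0.40) and HSPA8 (−0.26) in cluster 7 lost their call, and cluster 15 gave no value. This filter took cells from clusters 7, 13, 14 and 15 only, so for the sums of the other clusters it is no check. The replicate block, which pairs the libraries, changed no printed call. It raised the counts over all clusters from 41 higher and 63 lower to 55 and 75 (20.2% and 22.2% of all genes under the block, against 14.9% and 17.1% without it), the genes higher in cluster 12 than in cluster 3 from 3 to 5 and those lower in cluster 2 than in cluster 1 from 1 to 3. The cause of these changes was not tested. The share of cluster 12 cells with a CRYAB UMI was 69.5% at 1000 UMIs per cell and 99.0% unthinned. Of 20 genes named as most similar, 0 were named over the 10 deeper clusters. With 1 library left out there is no test. None of the 59 changed sign, but 16 without library 1 and 21 without library 2 moved by at least the SD between the values of both libraries. This SD comes from the same values and grows with the distance between them. The counts of moved values therefore cannot show how far a result depends on a library. Among printed values that were not called, HSP90B1 in cluster 7 was −0.08 in library 1 and 0.70 in library 2, and HSP90AA1 between clusters 9 and 1, at −0.01 with both, was 0.01 and 0.02. Both libraries come from 1 animal, so no p-value covers differences between animals.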

Other observations

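The cells with the highest CRYAB differed from the rest of their cluster in ways that were not the same in each cluster. The 5% of cells with the highest CRYAB level were set beside the others, with no test, since cells are not replicates. In cluster 12 the 32 top cells had a CRYAB level of 51.6 UMIs per 10000, against 13.7 in the other 595. Their HSPB1 level was 19.5 against 8.37 and their DES level 35.8 against 21.5, while HSPA5 was 1.67 against 3.91 and MYOG 17.9 against 18.7. In cluster 3 the 102 top cells had CRYAB at 14 against 3.85 in the other 1932, and MYOG at 8.24 against 6.59. In cluster 14 the 23 top cells had CRYAB at 45.1 against 3.95, MYOG at 10.2 against 1.27 and DES at 15.9 against 3.38. In cluster 9 the 54 top cells had a CRYAB level of 31.3 against 4.89, with MYOG at 0.0944 against 0.273, PDGFRA at 1.69 against 1.58 and 7.41% doublets against 14.8%. A PDGFRA UMI was found in 81.5% of these top cells and in 92.3% of the others. The MYOG level was thus higher in the top cells of clusters 3 and 14. In cluster 9 it was low in top and other cells alike, with a MYOG UMI in 20.4% and 23.8% of them. In cluster 12 the MYOG levels were close, with a MYOG UMI in 100% of the top cells and 99.5% of the others. These levels pool both libraries, so their spread is not given.

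Transcription factors of the stress response and immediate early genes, which are known for their fast response to many stimuli, were counted over lists of 8 each, with no test of the lists. In cluster 8, 5 stress factors were higher and 1 lower, with ATF5 at 1.79 and DDIT3 at 1.48, and 1 immediate early gene was higher and 5 lower, with FOSB at −3.50 and IER2 at −0.83. Of all genes, 22.5% were higher and 23.5% lower there, and of the 10 chaperones 2 were higher and 7 lower. In cluster 9, 6 stress factors were lower and the other 2 not called, with ATF5 at −1.35 and ATF4 at −0.45, and 2 immediate early genes were higher and 6 lower, with FOS at −2.17 and EGR1 at −1.94. Of all genes, 25.3% were higher and 27.7% lower, and of the chaperones 8 were higher. In cluster 3, 4 stress factors were higher and 3 lower, with ATF5 at −1.2 and DDIT3 at −1.12, and 5 immediate early genes were higher and 2 lower, with ATF3 at 1.39 and FOS at 1.32, against 24.5% and 25.4% of all genes and 7 and 2 chaperones. In cluster 7, 4 stress factors were lower and the other 4 not called, with ATF4 at −0.92 and HSF1 at −0.79, and 2 immediate early genes were higher and 1 lower, with FOSB at 2.53 and JUNB at −0.58, against 18.3% and 26.4% of all genes and 1 and 8 chaperones. These values are with TMM, and the median of all genes in cluster 7 was −0.12 with TMM and 0.52 without it. The lists were not counted without TMM. The lists thus moved with most of the chaperones in some clusters and against them in others.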
